A study of Homo sapiens with 12 samples.

Results

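Lipid droplet genes were followed through 12 RNA-seq libraries of Huh7 and Hep3B cells, both of them long-established lines from human liver cancers. The 10 members were HILPDA, PLIN2, PLIN3, PLIN4, PLIN5, PNPLA2, PNPLA3, G0S2, CIDEB and CIDEC, taken by gene symbol, and each had 1 row in the table of each line, out of 62703 genes. The cells of each line expressed shNC, a control short hairpin RNA, or shSLC6A8, which targets the creatine transporter gene SLC6A8, with 3 libraries in each of the 4 groups. Every library came from cells kept in hypoxia for 24 hours, so the comparisons are between hairpins and between lines, and none is with normal oxygen. By its title, the study asks how SLC6A8, raised by hypoxia, acts as hepatocellular carcinoma advances. The labels name 1 hairpin against SLC6A8 and do not say whether the libraries of a group came from separate cultures; a p-value here sets a change against the spread of those libraries, which may be technical.

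A lipid droplet is a store of triglyceride and sterol esters under a single layer of phospholipid, and its surface proteins decide how fast the store is filled and emptied. Perilipins coat the surface and shield it from lipases; PNPLA2, also called adipose triglyceride lipase, takes the first fatty acid from triglyceride and is held back by the small proteins HILPDA and G0S2. CIDE proteins bring droplets together and pass lipid between them, and in hepatocytes CIDEB also takes part in loading lipid onto very-low-density lipoprotein. HILPDA and PLIN2 are known as genes that hypoxia induces through the hypoxia-inducible factors, and cells short of oxygen typically store more lipid in droplets.

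Library totals ran from 21065965 to 28078068 estimated counts. SLC6A8 itself averaged 14.3 TPM (the deposited transcript level, scaled for gene length and library depth) in Huh7 shNC and 5.88 in Huh7 shSLC6A8, and 191.9 against 21.1 in Hep3B, so the hairpin's target was lower in all 6 knockdown libraries than in the shNC libraries of its line. Among 8 hepatocyte markers none averaged under 1 TPM in any group. All 6 adipocyte markers, among them PLIN1, the perilipin of fat cells, averaged under 1 TPM in every group, and LEP was listed at 0 in all 12 libraries.

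PLIN2, PLIN3 and PNPLA2 led the droplet set in every group. TPM put PLIN2 above PLIN3 and PLIN3 above PNPLA2 in all 4 groups, with no overlap between neighbours. In Huh7 shNC, PLIN2 averaged 275 ± 9.72 TPM (SD, n = 3), PLIN3 95.1 ± 0.974 and PNPLA2 65.3, followed by CIDEC at 35.6, HILPDA at 31.0, CIDEB at 13.9, G0S2 at 4.47, PNPLA3 at 1.73, PLIN4 at 1.08 and PLIN5 at 0.677. CIDEC and HILPDA overlapped in range there, and the other neighbours did not. In Hep3B shNC the order after PNPLA2 at 108.3 TPM was CIDEB at 78.2, HILPDA at 57.9, PLIN4 at 12.03, PLIN5 at 10.9, PNPLA3 at 5.70, G0S2 at 0.317 and CIDEC at 0.250. PLIN4 and PLIN5 could not be ordered beyond their spread, nor could G0S2 and CIDEC.

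**Figure D1:**
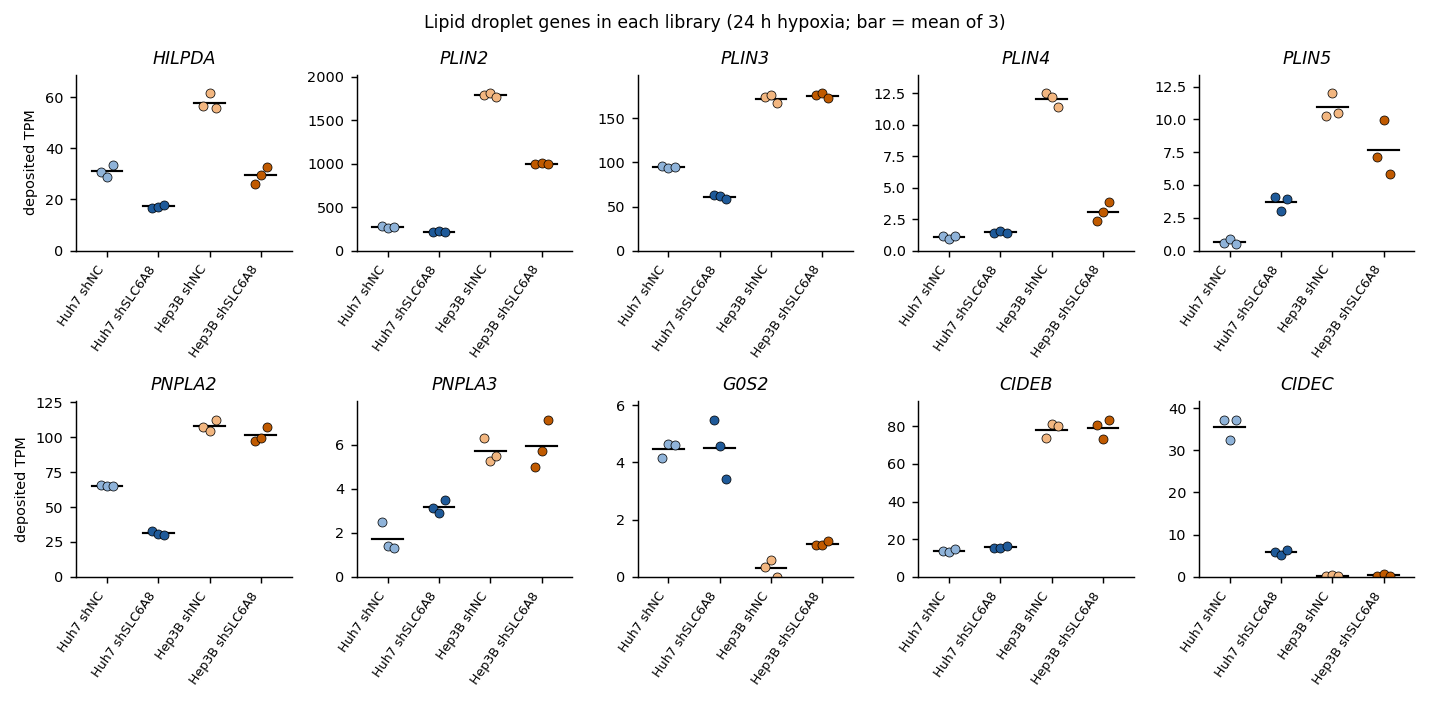
Deposited TPM of each lipid droplet gene (vertical axes, linear, each from 0) in the 4 groups, with 1 point per library and a bar at the mean of 3. PLIN2 reached 1788 TPM on average in Hep3B shNC against 275 in Huh7 shNC, whereas CIDEC averaged 35.6 TPM in Huh7 shNC and 0.250 in Hep3B shNC.

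Hep3B held more of most droplet transcripts than Huh7 before any knockdown was considered. In 1 fit of all libraries with edgeR's quasi-likelihood test (Benjamini-Hochberg adjusted p under 0.05), 8 of the 10 members were higher in Hep3B shNC than in Huh7 shNC and 2 were lower; over all genes tested 81.2% differed, 39.9% higher and 41.3% lower. PLIN2 was higher by 2.67 ± 0.05 (SE) on the log2 scale (adjusted p = 1.99e-17, edgeR) and CIDEB by 2.27 ± 0.09 (adjusted p = 2.29e-13, edgeR). HILPDA was higher by 0.81 ± 0.07 (adjusted p = 1.35e-08, edgeR). CIDEC was at -7.10 ± 0.19 (adjusted p = 2.03e-15, edgeR) and G0S2 at -3.77 ± 0.44 (adjusted p = 4.77e-07, edgeR), both lower in Hep3B. In Hep3B shNC, CIDEC had 4, 6 and 3 counts and G0S2 had 4, 7 and 0, so both sizes are uncertain. CIDEC, too scarce for the test within Hep3B, entered this fit through the Huh7 libraries, and its value is a description. For PNPLA3 the size depended on the unit, at 3.49 from counts and 1.72 from mean TPM on the log2 scale. Line and deposited table coincide, so they cannot be told apart in these values.

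With the SLC6A8 knockdown, HILPDA and PLIN2 were lower in both lines. PLIN3 and PNPLA2 were clearly lower in Huh7. In Hep3B the test put both slightly lower, but their TPM ranges overlapped and neither call survived scaling by library totals. CIDEC was lower in Huh7 and PLIN4 was lower in Hep3B. PLIN5 rose in Huh7 and fell slightly in Hep3B, a call also lost with library totals. In Huh7, 5 of 10 members fell (HILPDA, PLIN2, PLIN3, PNPLA2 and CIDEC), 2 rose (PLIN5 and PNPLA3) and 3 did not pass (PLIN4, G0S2 and CIDEB). Over all 17022 genes tested there, 61.8% were called, 30.9% higher and 31.0% lower. In Hep3B, 9 members had enough reads to be tested, and 6 fell (HILPDA and PLIN2 to PLIN5, with PNPLA2), none rose and 3 did not pass (PNPLA3, G0S2 and CIDEB), beside 40.1% called over 16181 genes, 18.9% higher and 21.2% lower. The median over the genes tested was 0.00 in Huh7 and 0.01 in Hep3B on the log2 scale. With so large a share of all genes called, a call by itself says little about a member, and the sizes below carry more. When the Hep3B libraries were scaled by their totals alone, the median of all genes moved to 0.20 and the members that fell numbered 3 (HILPDA, PLIN2 and PLIN4), with 1 higher (G0S2).

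**Figure D2:**
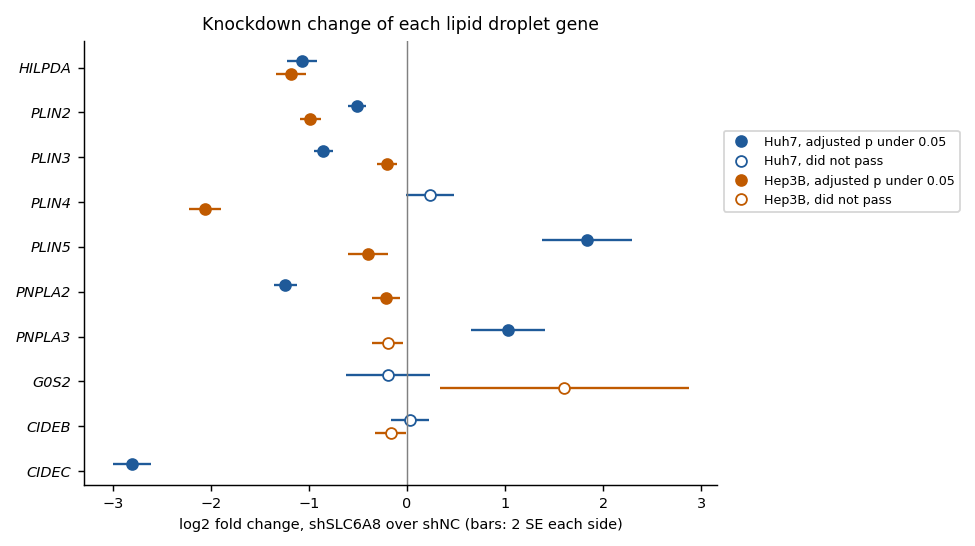
Log2 fold change of shSLC6A8 over shNC for each gene in Huh7 (blue) and Hep3B (orange), with bars of 2 SE on each side from edgeR and filled points at adjusted p under 0.05. HILPDA sits near -1 in both lines, while PLIN5 is at 1.84 in Huh7 and -0.40 in Hep3B; CIDEC was not tested in Hep3B.

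HILPDA (ENSG00000135245, chr7:128455878-128458418, plus strand, RefSeq on GRCh38.p14) encodes the hypoxia-inducible droplet protein that inhibits PNPLA2. Huh7 shNC libraries 1 to 3 had 30.7, 28.9 and 33.5 TPM, and shSLC6A8 libraries 16.8, 17.2 and 17.9. In Hep3B the shNC libraries had 56.4, 61.5 and 55.6 TPM and the shSLC6A8 libraries 25.9, 29.5 and 32.7. All knockdown libraries lay under all control libraries in each line, and the range of the Hep3B knockdown libraries overlapped that of the Huh7 controls. The change was -1.07 ± 0.08 in Huh7 (SE; adjusted p = 2.85e-09, edgeR) and -1.18 ± 0.08 in Hep3B (adjusted p = 1.85e-06, edgeR). The difference between lines was -0.11, with an interval of 2 SE from -0.32 to 0.10 (adjusted p = 0.437, edgeR), which does not show that the lines changed alike. CIDEB was the other member without a passing difference, at -0.20 (adjusted p = 0.218, edgeR). Scaled by library totals, the Hep3B change was -0.99. Same-strand transcripts share HILPDA exon positions: AC010655.4 had mean counts of 15.7 and 5.0 in Huh7 and 33.0 and 29.7 in Hep3B, and AC010655.2 had 14.7 and 6.3 in Huh7 and 60.3 and 96.3 in Hep3B. HILPDA had at least 306 counts in every library, and the part of these transcripts in its values was not tested.

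PLIN2 (ENSG00000147872, chr9:19108388-19127492, minus strand), the perilipin found on droplets of nearly every cell and the main droplet coat of hepatocytes, was the most abundant member. Its values were 285, 265 and 276 TPM in Huh7 shNC and 210, 222 and 219 in Huh7 shSLC6A8. Hep3B shNC libraries held 1791, 1810 and 1764 TPM, and Hep3B shSLC6A8 libraries 999, 1009 and 997. The groups were apart in each line, yet every Hep3B knockdown library still held more PLIN2 than any Huh7 library. The fall was -0.51 ± 0.05 in Huh7 (adjusted p = 5.33e-08, edgeR) and -0.98 ± 0.05 in Hep3B (adjusted p = 5.62e-07, edgeR), and Hep3B minus Huh7 was -0.47 (adjusted p = 2.18e-05, edgeR).

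The changes of 3 perilipins set them apart. PLIN2 fell in both lines, and PLIN4 fell in Hep3B and did not pass in Huh7. PLIN5 rose in Huh7 and fell slightly in Hep3B, a call lost with library totals. Promoter sequences are shown for these 3. Each is the 250 bases before the annotated start in RefSeq (GRCh38.p14, 5′ to 3′ on the gene's strand, all 3 genes on the minus strand), with capitals at the core of the hypoxia response element, ACGTG or GCGTG, searched on both strands. The intervals are chr9:19127493-19127742 for PLIN2, chr19:4518487-4518736 for PLIN4 and chr19:4535225-4535474 for PLIN5.
PLIN2: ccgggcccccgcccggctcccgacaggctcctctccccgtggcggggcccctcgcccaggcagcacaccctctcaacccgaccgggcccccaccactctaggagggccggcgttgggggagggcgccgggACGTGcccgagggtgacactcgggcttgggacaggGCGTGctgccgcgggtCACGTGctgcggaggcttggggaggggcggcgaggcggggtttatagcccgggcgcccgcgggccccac
PLIN4: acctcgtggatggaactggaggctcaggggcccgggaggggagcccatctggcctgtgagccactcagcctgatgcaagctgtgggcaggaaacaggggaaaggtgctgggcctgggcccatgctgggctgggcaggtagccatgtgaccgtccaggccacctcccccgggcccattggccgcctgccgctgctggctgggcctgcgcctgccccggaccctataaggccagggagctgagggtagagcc
PLIN5: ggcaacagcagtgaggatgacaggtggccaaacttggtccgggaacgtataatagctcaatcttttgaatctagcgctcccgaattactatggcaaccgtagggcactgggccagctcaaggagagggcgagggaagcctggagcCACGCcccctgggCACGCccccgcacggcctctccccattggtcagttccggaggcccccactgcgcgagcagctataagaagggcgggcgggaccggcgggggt
PLIN2 had 4 matches, 2 of which are the same CACGTG read on both strands, 69 to 64 bases before the start. PLIN5 had 2 matches and PLIN4 had 0. Of the 8 members with a promoter in the table, G0S2 had 4 matches, PLIN3 had 3, and CIDEB had 1 at 1 of its starts, while PNPLA2 and CIDEC had 0. The core occurred in 43.2% of 35114 RefSeq promoters of this length, ACGTG in 18.5%, GCGTG in 32.2% and CACGTG in 6.35%, so a match describes the letters and is not evidence of a site. HILPDA and PNPLA3 had no entry in the table.

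PLIN3 (ENSG00000105355, chr19:4838341-4867667, minus strand), a perilipin that is soluble in the cytosol and moves onto newly formed droplets, fell clearly in Huh7. There the shNC libraries had 96.1, 94.1 and 95.3 TPM and the shSLC6A8 libraries 63.6, 61.7 and 58.2. In Hep3B the values were 174, 176 and 167 TPM with shNC and 176, 178 and 173 with shSLC6A8. In TPM the groups were apart in Huh7 and overlapped in Hep3B. In CPM the Hep3B groups were apart, at 268.9, 288.4 and 276.4 with shNC and 245.1, 233.2 and 248.3 with shSLC6A8. The test gave -0.85 ± 0.05 in Huh7 (adjusted p = 1.4e-10, edgeR) and -0.21 ± 0.05 in Hep3B (adjusted p = 0.00816, edgeR). In Hep3B the call did not survive scaling by library totals (-0.02, adjusted p = 0.79, edgeR) and without Hep3B shNC replicate 2 (adjusted p = 0.0509, edgeR). Hep3B and Huh7 differed by 0.65 (adjusted p = 3.75e-07, edgeR).

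PLIN4 and PLIN5 are neighbours, with 4045 bases between them on chromosome 19. PLIN4 (ENSG00000167676, chr19:4502192-4518486, minus strand) coats small droplets through a long amphipathic stretch and is best known from fat and muscle. In Hep3B its level was 12.5, 12.2 and 11.4 TPM with shNC and 2.39, 3.04 and 3.85 with shSLC6A8; in Huh7 it was 1.16, 0.930 and 1.15 TPM against 1.38, 1.52 and 1.43. The knockdown libraries were under all controls in Hep3B and slightly over all controls in Huh7. The Hep3B fall of -2.06 ± 0.08 (adjusted p = 7.54e-08, edgeR) was the largest among the members tested in that line, and the Huh7 value was 0.23 ± 0.12 (adjusted p = 0.11, edgeR; 0.34 and 0.0266 with library totals). Hep3B minus Huh7 came to -2.29 (adjusted p = 3.95e-10, edgeR). Exons of HDGFL2 on the opposite strand overlap PLIN4, and its mean count went from 3858 to 5525 in Hep3B and from 1722 to 2422 in Huh7; the strand setting of the counting is not given in the sources used here, and its part in the PLIN4 values was not tested.

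PLIN5 (ENSG00000214456, chr19:4522531-4535224, minus strand) is the perilipin of tissues that burn fat, and it ties droplets to mitochondria. Huh7 shNC libraries had 0.610, 0.890 and 0.530 TPM and Huh7 shSLC6A8 libraries 4.12, 3.01 and 3.96. The Huh7 shNC values rest on only 25.9, 29 and 17 counts, so the size of the Huh7 rise is uncertain. In Hep3B the values were 10.3, 11.98 and 10.5 TPM with shNC and 7.11, 9.94 and 5.85 with shSLC6A8. The groups did not overlap in either line, with the knockdown higher in Huh7 and lower in Hep3B. The change was 1.84 ± 0.23 in Huh7 (adjusted p = 2.29e-06, edgeR) and -0.40 ± 0.10 in Hep3B (adjusted p = 0.0121, edgeR), a difference of -2.23 (adjusted p = 4.56e-07, edgeR). With library totals the Hep3B value was -0.21 (adjusted p = 0.123, edgeR). A same-strand transcript, AC011498.4, overlaps PLIN5 exons and moved with it, from a mean of 5.3 to 23.3 counts in Huh7 and from 72.3 to 44.0 in Hep3B, so the values of this pair are uncertain.

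Between PLIN5 and PLIN3 lie 303117 bases. Of the other genes tested in the stretch from PLIN4 to PLIN3, 2 of 6 rose and 2 fell in Huh7, and 0 of 7 rose and 4 fell in Hep3B. Over all genes tested, 30.9% were higher and 31.0% lower in Huh7, and 18.9% and 21.2% in Hep3B. Whether the stretch departs from these shares was not tested. TNFAIP8L1 had the same pattern as PLIN5, at 1.36 ± 0.07 in Huh7 and -0.39 ± 0.05 in Hep3B (adjusted p = 2.2e-11 and 0.000215, edgeR), and LRG1, the next gene after PLIN5, was at 0.18 and -0.40. MYDGF was lower in both lines, at -0.26 and -0.45. TICAM1, next to PLIN3, was at -1.25 in Huh7 and -0.09 in Hep3B, the latter not past the test. These neighbours were named for their place and not by the rule for named genes.

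**Figure D3:**
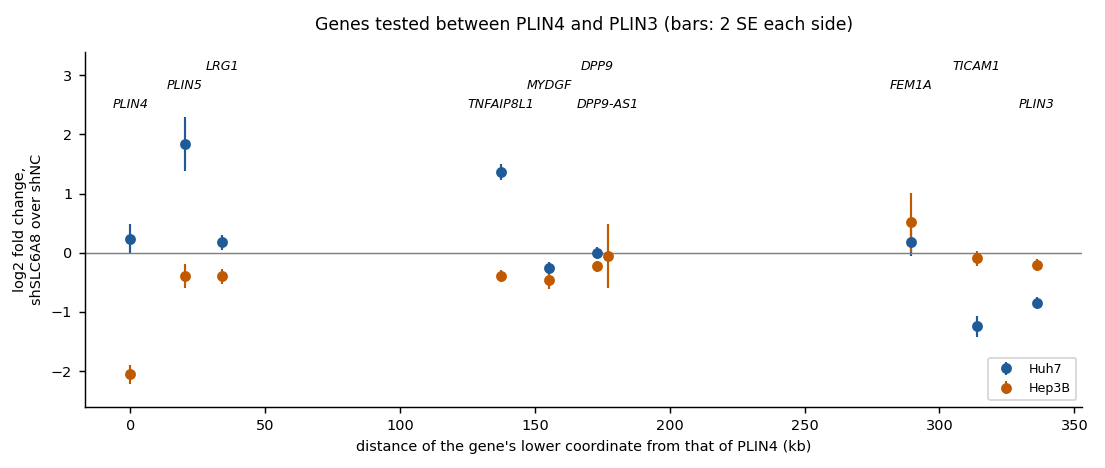
Log2 fold change of shSLC6A8 over shNC (vertical axis; bars of 2 SE on each side) for the genes tested from PLIN4 to PLIN3 on chromosome 19, placed by distance in kilobases, with Huh7 in blue and Hep3B in orange. PLIN5 and TNFAIP8L1 lie above 0 in Huh7 and below 0 in Hep3B, PLIN4 is at 0.23 (not past the test) and -2.06, whereas PLIN3 and MYDGF lie below 0 in both.

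Since the perilipins did not move in step, the make-up of the coat transcripts shifted. The 4 perilipins summed to 372 ± 10.6 TPM in Huh7 shNC and 283 ± 4.52 in Huh7 shSLC6A8 (SD, n = 3), and to 1984 ± 29.2 and 1188 ± 10.8 in Hep3B. PLIN2 made up 74.0% of that sum in Huh7 shNC and 76.6% in Huh7 shSLC6A8, but 90.2% in Hep3B shNC and 84.3% in Hep3B shSLC6A8. PLIN3 went from 25.6% to 21.6% in Huh7 and from 8.69% to 14.8% in Hep3B. PLIN5 stayed a small part, at 0.183% and 1.31% in Huh7 and 0.550% and 0.641% in Hep3B. The PLIN2 share of the knockdown libraries lay above the controls in Huh7 and below them in Hep3B, without overlap; these shares are levels of messenger RNA and carry no test.

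**Figure D4:**
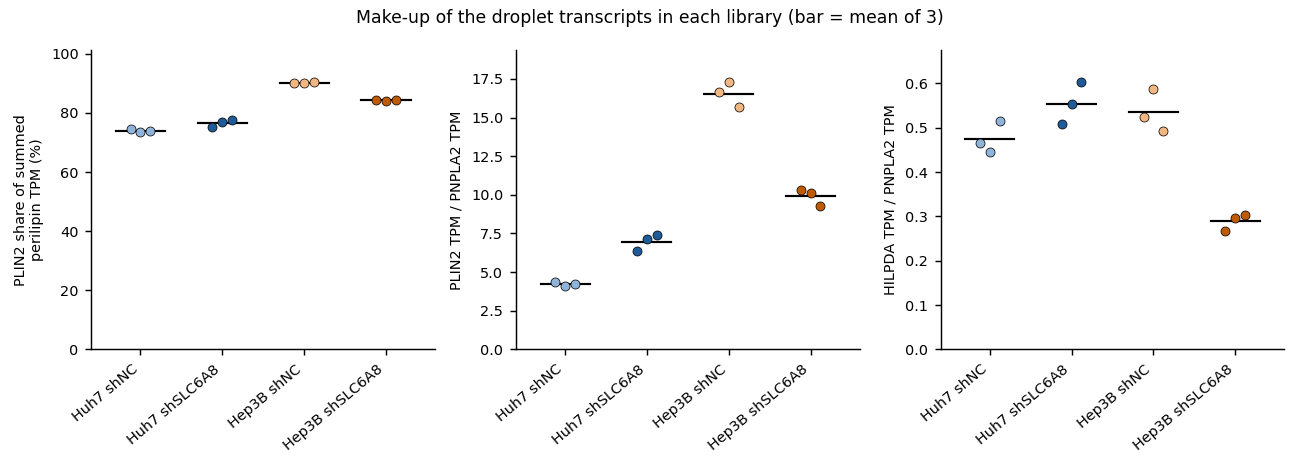
Share of PLIN2 in the summed TPM of the 4 perilipins (%), and the ratios of PLIN2 and of HILPDA to PNPLA2 on the TPM scale, with 1 point per library and a bar at the mean of 3. The PLIN2 to PNPLA2 ratio averaged 4.22 and 6.96 in Huh7 and 16.5 and 9.89 in Hep3B (shNC, then shSLC6A8).

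PNPLA2 (ENSG00000177666, chr11:818914-825573, plus strand) encodes the lipase that starts triglyceride breakdown. Huh7 shNC libraries had 65.8, 65.1 and 65.0 TPM, and Huh7 shSLC6A8 libraries 33.1, 31.0 and 29.7. In Hep3B the values were 107.5, 104.8 and 112.6 TPM with shNC and 97.0, 99.8 and 107.6 with shSLC6A8. Huh7 groups were far apart and Hep3B groups overlapped. The fall was -1.24 ± 0.06 in Huh7 (adjusted p = 1.07e-11, edgeR). In Hep3B it was -0.22 ± 0.07 (adjusted p = 0.0362, edgeR), a call that did not survive library totals (-0.03, adjusted p = 0.76) and lost when any of 4 single libraries was left out (shNC replicate 2 or 3, shSLC6A8 replicate 1 or 2; adjusted p from 0.0763 to 0.145, edgeR). The lines differed by 1.03 (adjusted p = 1.4e-07, edgeR).

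Ratios to PNPLA2 went opposite ways in the lines. On the TPM scale PLIN2 over PNPLA2 went from 4.22 ± 0.131 to 6.96 ± 0.548 in Huh7 (SD, n = 3) and from 16.5 ± 0.808 to 9.89 ± 0.551 in Hep3B, without overlap in either line. HILPDA over PNPLA2 was 0.475 ± 0.036 and 0.555 ± 0.047 in Huh7, where the libraries overlapped, and 0.535 ± 0.047 and 0.289 ± 0.019 in Hep3B, where they did not.

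G0S2 (ENSG00000123689, chr1:209675412-209676390, plus strand), the other inhibitor of PNPLA2, was scarce. It had 4.15, 4.64 and 4.61 TPM in Huh7 shNC and 5.49, 4.57 and 3.41 in Huh7 shSLC6A8, overlapping, with a change of -0.19 ± 0.21 (adjusted p = 0.453, edgeR). In Hep3B it had 4, 7 and 0 counts with shNC and 15, 13 and 16 with shSLC6A8, and it entered the test only through the knockdown libraries. Since the group where the gene was higher let it into the test, the Hep3B value of 1.60 ± 0.63 (adjusted p = 0.0685, edgeR) is given as a description. It ran from 1.07 without Hep3B shNC replicate 3, the library at 0, to 2.42 without Hep3B shNC replicate 2, and its adjusted p from 0.0223 in 1 fit of all libraries to 0.147 without Hep3B shSLC6A8 replicate 3. Hep3B minus Huh7 was 1.80 (adjusted p = 0.0213, edgeR), from 1.26 to 2.61 without the same shNC libraries.

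PNPLA3 (ENSG00000100344, chr22:43923805-43947582, plus strand) is a droplet protein related to PNPLA2 and known from fatty liver disease. In Huh7 it went from 2.47, 1.39 and 1.32 TPM with shNC to 3.15, 2.88 and 3.51 with shSLC6A8, without overlap, a rise of 1.03 ± 0.19 (adjusted p = 0.000149, edgeR). In Hep3B it had 6.33, 5.27 and 5.49 TPM with shNC and 4.99, 5.73 and 7.14 with shSLC6A8, which overlapped. In CPM the Hep3B groups were apart, with the knockdown lower. The value was -0.20 ± 0.08 (adjusted p = 0.0653, edgeR, and 0.0413 without Hep3B shNC replicate 2). The difference between lines was -1.23 (adjusted p = 3.41e-05, edgeR). PNPLA3 shares exon positions with SAMM50 on the same strand, whose mean count was 1253 and 1243 in Huh7 and 1216 and 1318 in Hep3B, so its counts are uncertain, as for the other members that share exon positions with a neighbour.

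The CIDE proteins divided by line. CIDEC (ENSG00000187288, chr3:9866710-9880253, minus strand), which drives the fusion of droplets into large ones and is raised in fatty liver, had 37.1, 32.3 and 37.3 TPM in Huh7 shNC and 5.92, 5.24 and 6.46 in Huh7 shSLC6A8. The fall of -2.81 ± 0.10 (adjusted p = 2.02e-13, edgeR) was the largest change among the members in Huh7, and the libraries were far apart. In Hep3B, CIDEC had 4, 6 and 3 counts with shNC and 5, 10 and 5 with shSLC6A8, too few for the test within that line. The difference between lines of 3.05 (adjusted p = 3.03e-05, edgeR) therefore sets the Huh7 fall against at most 10 counts per Hep3B library. It is given as a description.

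CIDEB (ENSG00000136305, chr14:24305187-24311435, minus strand), the CIDE protein of hepatocytes, passed in neither line. It ranged from 13.4 to 14.5 TPM in Huh7 shNC and from 15.2 to 16.3 in Huh7 shSLC6A8, with a change of 0.03 ± 0.10 (adjusted p = 0.792, edgeR); the groups were apart in TPM and overlapped in CPM. In Hep3B it ranged from 73.5 to 81.2 TPM and from 73.3 to 83.5, with -0.17 ± 0.08 (adjusted p = 0.115, edgeR). NOP9, on the opposite strand, overlaps CIDEB exons and had 1300 and 2035 mean counts in Huh7 and 1207 and 1564 in Hep3B. The sign of the CIDEB value turned without Huh7 shSLC6A8 replicate 1 (-0.01) and, in Hep3B, with library totals (0.02).

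The difference of the knockdown change between lines passed for 8 of the 10 members, 4 higher in Hep3B (PLIN3, PNPLA2, G0S2 and CIDEC) and 4 lower (PLIN2, PLIN4, PLIN5 and PNPLA3). Of these, G0S2 and CIDEC had at most 16 and 10 counts in a Hep3B library. CIDEC was not tested within Hep3B and entered this fit through the Huh7 libraries, where it was high. Its difference is therefore given as a description and says nothing of a Hep3B response. The other 6 of the 8 had over 16 counts in every library, though PLIN5 had only 25.9, 29 and 17 in Huh7 shNC. Over all 18570 genes tested the difference passed for 47.1%, 23.1% higher and 24.0% lower. The counts of 4 and 4 were the same under other scalings, filters and tools, with the replicate block and with each library left out; other thresholds were not run for the difference. The authors' deposited table had the same sign for 10 of 10 members in Huh7 and 9 of 9 in Hep3B, with log2 values within 0.0141 and 0.0448, and adjusted p under 0.05 for 7 and 6 of them.

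HILPDA and PLIN2 stood beside a wider set of genes that hypoxia induces. The share of all genes tested that fell was 31.0% in Huh7 and 21.2% in Hep3B. Of 15 hypoxia reference genes outside the droplet set, 14 fell in Huh7 and 15 in Hep3B, with medians of -1.47 and -1.24, and none rose. The list was chosen with earlier results of these data known, as were the other lists, so its counts are a description. ADM, the peptide hormone adrenomedullin, was at -2.86 ± 0.08 in Huh7 and -2.09 ± 0.09 in Hep3B, CA9, a carbonic anhydrase of hypoxic tumour cells, at -3.84 ± 0.26 and -2.31 ± 0.09, and NDRG1, a stress-response gene, at -1.70 ± 0.05 and -1.38 ± 0.05. EGLN3, an oxygen sensor, was at -0.22 in Huh7 (adjusted p = 0.0672, edgeR) and -1.34 in Hep3B. The HILPDA change was smaller than the list's median in Huh7 and near it in Hep3B, and the PLIN2 change was smaller in both. The list's summed TPM was 3203 to 3359 with shNC and 1325 to 1411 with shSLC6A8 in Huh7, and 4102 to 4300 and 2010 to 2040 in Hep3B. Whether oxygen was equally low under each hairpin cannot be told apart from the hairpin itself here.

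By Pearson correlation of log2 CPM (counts scaled for library size) over the 12 libraries, each line's mean removed, genes ranked most like HILPDA out of 11853 included EPS8L3 (0.996), IRAK2 (0.994), BHLHE40 (0.994) and ALDOC (0.994). Those most like PLIN2 were GPI (0.997), ARF1 (0.996), SLC6A8 (0.995), FGA (0.993) and CCDC88B (0.992). These values describe the libraries, which share their groups and depth, and so many genes changed with the hairpin that high values are common. GPI, a glycolytic enzyme, was at -0.67 in Huh7 and -1.33 in Hep3B, and SLC6A8 at -1.95 and -3.42. Both were picked for likeness to PLIN2 over these same libraries. The larger fall in Hep3B that they share with PLIN2 therefore follows from the ranking. BHLHE40, a transcriptional repressor, was at -1.92 and -2.24, and ALDOC, a glycolytic aldolase, at -2.18 and -2.31.

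Genes that control droplet transcription went apart between the lines. The shares over all genes tested were 30.9% higher and 31.0% lower in Huh7, and 18.9% and 21.2% in Hep3B. Of 12 tested, 10 rose and none fell in Huh7 (median 0.29), whereas 1 rose and 9 fell in Hep3B (median -0.40), and 7 rose in Huh7 and fell in Hep3B. Hep3B minus Huh7 was negative and passed for 12 of 12, beside 24.0% lower over all genes tested. This list too was chosen with earlier results of these data known, so its counts are a description. PPARG, the nuclear receptor that drives lipid storage, averaged 16.3 and 18.8 TPM in Huh7 and 115 and 67.7 in Hep3B; its change was 0.18 in Huh7 (adjusted p = 0.0476, edgeR; 0.0505 with DESeq2 size factors) and -0.97 ± 0.05 in Hep3B. EPAS1, which encodes the hypoxia-inducible factor HIF-2 alpha, was at 0.28 and -1.03, HIF1A at 0.35 and -0.26, and RXRA, the partner of the PPAR receptors, at 0.99 and -0.27. MLXIPL, the glucose-responsive factor ChREBP, rose in both, by 1.57 ± 0.12 and 0.39 ± 0.05. With library totals the Hep3B counts were 2 higher and 6 lower, HIF1A and RXRA no longer passed there, and 10 of 12 differences passed.

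**Figure D5:**
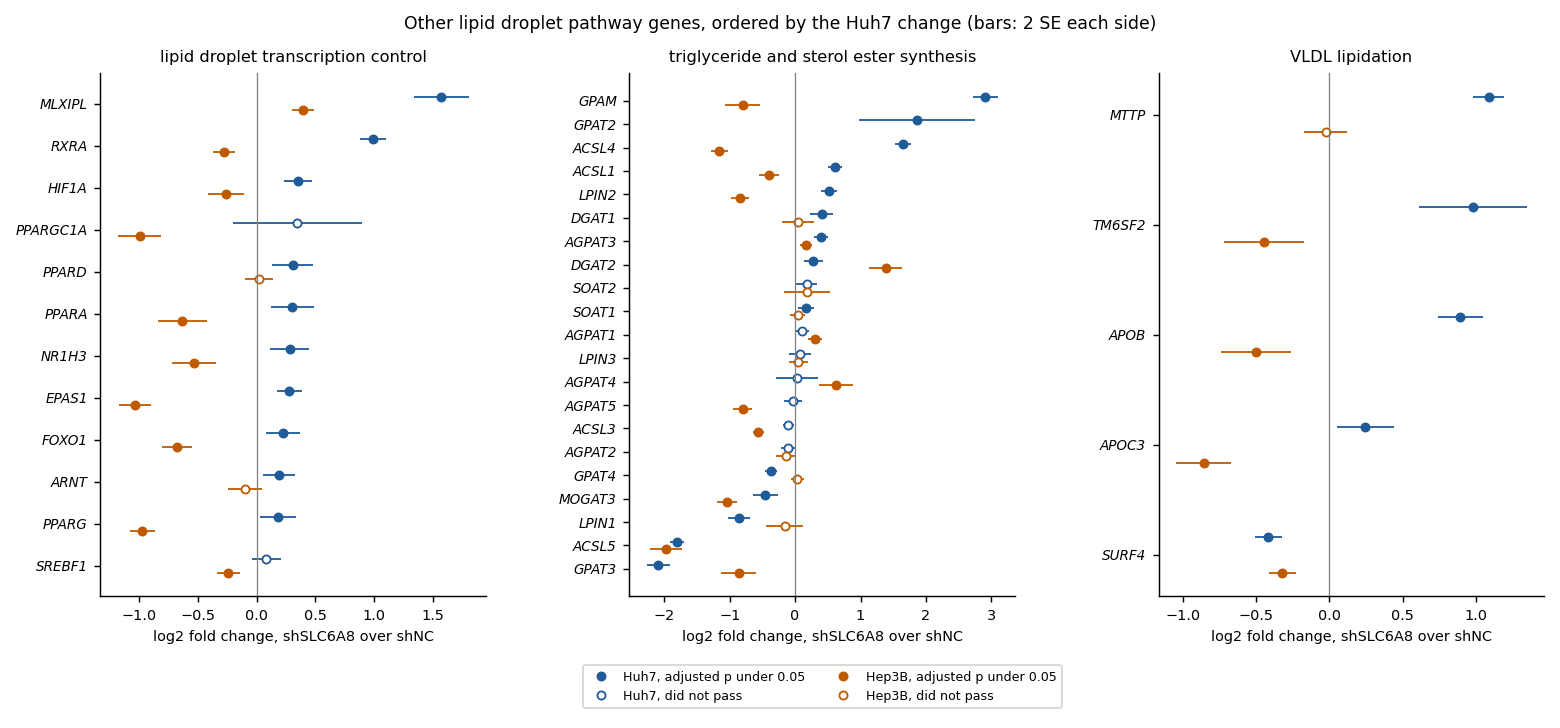
Log2 fold change of shSLC6A8 over shNC in Huh7 (blue) and Hep3B (orange) for 3 lists of lipid droplet pathway genes, ordered by the Huh7 value, with bars of 2 SE on each side and filled points at adjusted p under 0.05. Most transcription control genes lie right of 0 in Huh7 and left of 0 in Hep3B, while GPAM and ACSL4 show the widest gap among synthesis genes. Of the genes listed for very-low-density lipoprotein, SURF4 lies left of 0 in both lines.

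The enzymes that make triglyceride and sterol esters were divided in each line. Over all genes tested, 30.9% were higher and 31.0% lower in Huh7, and 18.9% and 21.2% in Hep3B. In Huh7, 9 of 21 rose and 5 fell (median 0.10), and in Hep3B 4 of 20 rose and 9 fell (median -0.15; 7 and 8 with library totals). GPAM, which adds the first fatty acid to glycerol phosphate, went from 2.89 to 29.1 TPM in Huh7, a rise of 2.91 ± 0.10, and was at -0.80 in Hep3B. ACSL4, which activates long polyunsaturated fatty acids, was at 1.65 ± 0.06 and -1.16 ± 0.07. ACSL5, another fatty acid activating enzyme, fell in both, at -1.80 and -1.97, and so did GPAT3, at -2.09 and -0.86. DGAT2, which makes triglyceride in its last step, went from 2.08 to 7.61 TPM in Hep3B, a rise of 1.39 ± 0.13, and rose by 0.28 in Huh7.

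Genes of droplet formation and other surface proteins fell more often than they rose in Huh7, 9 against 5 of 15 tested (median -0.39), and in Hep3B 4 fell and 2 rose of 14 (median -0.02; 0 fell and 7 rose with library totals). BSCL2, or seipin, which sits where droplets bud from the endoplasmic reticulum, went from 118.9 to 46.7 TPM in Huh7 and from 14.5 to 28.3 in Hep3B, with changes of -1.57 ± 0.06 and 0.75 ± 0.11. TMT1A, a methyltransferase found on droplets, went from 10.4 to 53.2 TPM in Huh7 (2.19 ± 0.06) and did not pass in Hep3B (-0.07). Among other lipases and their partners, 5 of 11 rose and 3 fell in Huh7 (median 0.09) and 1 of 8 rose and 3 fell in Hep3B (median 0.06; 3 and 1 with library totals). ABHD5, the activator of PNPLA2, was at -0.41 in Huh7 and 0.08 in Hep3B, the latter not past the test. LIPA, the lipase of the lysosome, rose by 0.61 in Huh7 and did not pass in Hep3B (0.04). Beside both lists, all genes tested were 30.9% higher and 31.0% lower in Huh7, and 18.9% and 21.2% in Hep3B.

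Uptake genes moved both ways in each line. All genes tested, for comparison, were 30.9% higher and 31.0% lower in Huh7, and 18.9% and 21.2% in Hep3B. Of 10 uptake and binding genes, 4 rose and 5 fell in Huh7 (median 0.09), and 1 rose and 4 fell in Hep3B (median -0.17; 3 and 2 with library totals). FABP1, the liver fatty acid binding protein, went from 413 to 1478 TPM in Huh7 and from 1385 to 501 in Hep3B, with changes of 1.65 ± 0.07 and -1.64 ± 0.07. CAV1, the coat protein of caveolae, fell in both, at -1.79 and -0.52. Of 5 genes listed for the assembly and export of very-low-density lipoprotein, 4 rose and 1 fell in Huh7 (median 0.89). In Hep3B 0 rose and 4 fell (median -0.45), and 2 fell with library totals. MTTP, the transfer protein that does the loading, rose by 1.08 in Huh7 and was at -0.03 in Hep3B, and APOB was at 0.89 and -0.50.

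Hepatocyte markers were higher in sum with the knockdown in Huh7 and lower in Hep3B. Beside the counts of markers below, all genes tested were 30.9% higher and 31.0% lower in Huh7, and 18.9% and 21.2% in Hep3B. Their summed TPM was 11220 to 11820 with shNC and 15260 to 15700 with shSLC6A8 in Huh7, and 23920 to 24200 and 16240 to 16660 in Hep3B, with 6 of 8 markers higher and 1 lower in Huh7 and 2 higher and 4 lower in Hep3B. With library totals the counts were 6 and 0 in Huh7 and 4 and 4 in Hep3B. ALB was at 0.62 in Huh7 and -0.55 in Hep3B. The part of hepatocyte identity in the droplet values was not tested. Fewer cells of a kind and less RNA per cell cannot be told apart in bulk libraries. Adipocyte markers summed to at most 1.06 TPM in every library, and 4 of 5 macrophage markers averaged under 1 TPM in every group; the fifth, CD68, a lysosomal protein, averaged 29.3 and 14.1 TPM in Huh7 and 54.2 and 22.8 in Hep3B. The 4 cholangiocyte markers summed to 825 to 863 TPM and 486 to 523 in Huh7, and to 710 to 731 and 843 to 893 in Hep3B. KRT19 made up most of the Huh7 sum and was at -1.38 there, while SOX9 was at 1.24. Of those tested, 1 rose and 2 fell in Huh7, and 1 rose and 1 fell in Hep3B. With library totals these counts were 1 and 1 in Huh7, and 2 and 1 in Hep3B. The 6 fibroblast or stellate cell markers summed to 18.3 to 24.5 TPM and 31.7 to 33.3 in Huh7, and to 4.47 to 5.50 and 3.67 to 5.09 in Hep3B. They too moved both ways. Of those tested, 2 rose and 1 fell in Huh7, and 1 rose and 1 fell in Hep3B. The part of these markers in the droplet values was not tested.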

How the data were processed

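Messenger RNA was sequenced in 12 libraries, grouped by line and hairpin as the labels give them. The RNAfast-2000 kit was used for RNA and a SMARTer kit for libraries, per the labels' protocols. The submitters' processing notes name GRCh38.p14 as the build; aligner, counter, annotation and strand setting: not given in the sources used here. For each gene and library the authors deposited an estimated count and a TPM value, with gene lengths and their own log2 fold change and adjusted p-value, per the file headers. Library sums of the deposited estimated counts differed, so they were taken as not normalized. TPM sums were 1000000 in Huh7 and from 998190 to 998473 in Hep3B, and TPM served for levels only. Other columns of sample values numbered 0.

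Estimated counts were rounded and filtered with filterByExpr. After TMM scaling, edgeR 4.0.16 (R 4.3.3) fitted a robust quasi-likelihood model to the 6 libraries of a line alone and tested by F, with Benjamini-Hochberg adjusted p under 0.05 over all genes tested. Differences between lines were tested in 1 fit of 12 libraries. SE is the absolute log2 fold change over the square root of F and is approximate; intervals are 2 SE on each side. The prior count of log2 CPM was 2. The common biological coefficient of variation was 5.92% in Huh7, 7.77% in Hep3B and 6.95% in the fit of 12. Replicates of every group differed by more than sampling noise. The steps were tested on simulated counts in which few genes changed, so scaling with many genes changed was not tested.

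Members and lists were chosen with earlier results of these data known. Named genes were the 10 members, SLC6A8, the 3 list genes with the smallest adjusted p in each line and direction (mean log2 CPM of 1 or more), and the 5 genes most like HILPDA and PLIN2. Some were left out for length, a few others the rule chose are left unreported, and a few list genes were named for their role after their values were seen. As alternatives, DESeq2 1.42.0, its size factors in edgeR, library totals, no filter, a stricter filter (mean of 20 counts), limma-voom (limma 3.58.1), a replicate block, 1 fit of all libraries, other thresholds (for the hairpin comparisons alone) and each library left out were run. Promoters and coordinates are from RefSeq on GRCh38.p14; overlaps of genes are from GENCODE exons.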

Additional observations from a re-analysis of the deposited data

Results flagged for a closer look

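The knockdown change differed between Hep3B and Huh7 for 8 of 10 members, by the interaction test of edgeR over 12 libraries (log2, Hep3B minus Huh7). PLIN4 differed by -2.29 (adjusted p = 3.95e-10, edgeR) and PLIN5 by -2.23 (4.56e-07), the widest gaps among members with over 16 counts in every library of both lines. PLIN5 was near that limit, with 17 to 29 counts in Huh7 shNC. PNPLA3 differed by -1.23 (3.41e-05) and PLIN2 by -0.47 (2.18e-05). PNPLA2 differed by 1.03 (1.4e-07) and PLIN3 by 0.65 (3.75e-07), with the larger fall in Huh7. CIDEC differed by 3.05 (3.03e-05) and G0S2 by 1.80 (0.0213), and both rest on few Hep3B reads, at most 10 and 16 counts in a library. CIDEC entered the fit through the Huh7 libraries, so its value is a description. The G0S2 value ran from 1.26 to 2.61 over the alternatives. Over all genes tested, 47.1% differed between the lines.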

How the results depend on the processing

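Of 683 recomputed member values, 659 kept their direction and side of the threshold, 16 lost the call, 6 gained it and 2 reversed. The reversals were CIDEB in Huh7 without Huh7 shSLC6A8 replicate 1 (-0.0096, a range over the libraries left out from -0.0096 to 0.13) and in Hep3B with library totals (0.0222), neither past the test. Library totals moved the median of all genes to 0.11 in Huh7, where 59.7% of calls were then higher against 49.9%, to 0.20 in Hep3B (76.2% against 47.2%) and to 0.10 for the difference (56.8% against 49.0%). In Hep3B they left 3 members lower and 1 higher; no filter, limma-voom and 1 fit of all libraries also gave 1 higher (G0S2). Requiring a log2 fold of 1 left 2584 genes in Huh7 with 3 members lower, and 1107 genes in Hep3B with 2 members lower; an adjusted p under 0.01 left 4206 genes in Hep3B. G0S2 in Hep3B had no value under the stricter filter. Leaving out each library gave 9722 to 10508 genes in Huh7 and 4905 to 6513 in Hep3B, with 5 to 6 members lower in Hep3B. The difference gave 8150 to 8948 genes and the line comparison 14852 to 15450. Correlations of same-numbered deviations ran from -0.15 to 0.28. They cannot decide whether the replicate numbers pair libraries, since deviations within a group of 3 constrain each other, and the labels do not state a pairing. A replicate block called 10125 genes in Huh7, 6221 in Hep3B, 8382 for the difference and 14926 between lines, and changed no count of members. Counts of 0 to 16 limit G0S2 and CIDEC in Hep3B. The cause of these shifts was not tested.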
